A study of Mus musculus with 27 samples.

Results

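The report concerns 10 genes of the lysosome and of phagocytosis in nuclei of the mouse hippocampus: Ctsb, Ctsd, Ctsl, Ctss, Ctsz, Lamp1, Lamp2, Cd68, Grn and Npc2. They were taken by symbol from the 31053 genes of the count matrices, and all 10 were found. The rule is a fixed set of symbols with no threshold on a measured value, although it was drawn up with earlier results of these data known. The lysosome is the acidic compartment in which cells break down material taken up from outside or delivered from within. Its soluble enzymes include the cathepsins, proteases that are made as inactive precursors, reach the compartment largely through mannose 6-phosphate receptors and are activated by the low pH. Its limiting membrane is coated with heavily glycosylated proteins such as LAMP1 and LAMP2. In the brain, microglia, the resident macrophages, are the main professional phagocytes, and they carry a large lysosomal system.

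The nuclei came from 27 mice, with 1 single-nucleus RNA-seq library per mouse, and the study asked how the tau transgene and the loss of Cgas, a sensor of cytosolic DNA, change hippocampal cells. Cgas+/+ had 5 libraries (3 males and 2 females), Cgas+/- had 2 and Cgas-/- had 2 (all 4 male), and these 9 carry no tau transgene and are called tau-free. P301S Cgas+/+, P301S Cgas+/- and P301S Cgas-/- had 6 libraries each, 3 males and 3 females. P301S is a human tau transgene with a dementia-linked mutation, expressed from the prion protein promoter, Cgas-/- is a germline deletion in all cells, and the age of the mice is given as 9 to 10 months in the methods and as 8 to 9 months in the results text. The groups are littermates of a cross, there was no drug treatment, and nuclei were sorted by a DNA dye before capture. Per the matrix headers, 12 libraries were processed with Cell Ranger 3.0.2 and 15 with 3.1.0. All 4 Cgas+/- and Cgas-/- libraries without tau belong to version 3.0.2, and all 11 female libraries belong to 3.1.0.

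The libraries held 46091490 to 79484316 UMIs each. Of 241938 barcodes, 203414 nuclei were kept, 5749 to 12511 per library, and no pair of libraries shared more than 0.515% of barcodes. The microglia class held 11263 nuclei, 215 to 1194 per library, with 266686 to 1884149 UMIs per library, and all 9 of its marker genes were higher in it than in any other class. The median UMI count of a microglial nucleus was 1211 to 1626 in tau-free libraries and 1277 to 2838 in P301S libraries. In 4 libraries (P301S Cgas+/+ replicates 2 and 3, P301S Cgas+/- replicates 1 and 2) an unnamed cluster was concentrated, and results that depend on them are given without them. Cgas itself, listed as Mb21d1, was at 51.7 ± 6.93 CPM (UMIs of the gene per 1000000 UMIs of its cell class; SD, n = 6) in microglia labelled P301S Cgas-/-. With P301S and at least 1 copy of Cgas it was at 43.0 ± 11.6 CPM (n = 6) in the heterozygous and 38.1 ± 11.6 (n = 6) in the Cgas+/+ mice. Without P301S it was at 34.7 ± 1.91 (n = 5) in Cgas+/+, 19.3 ± 4.49 (n = 2) in Cgas+/- and 27.7 ± 7.86 (n = 2) in Cgas-/-. In P301S microglia, the log2 fold change of Cgas in Cgas-/- against Cgas+/+ was 0.42 ± 0.19 (SE), so it was higher and not lower. Without P301S it was -0.30 ± 0.32. Tags of unspliced RNA outside the deleted part may still be counted, but the deleted part was not located and this was not tested. The labels were thus not checked by these values, and every Cgas group below is named by its label.

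On GRCm38 (GENCODE vM21) the genes of the proteases are Ctsb at chr14:63122462-63145923, Ctsd at chr7:142375911-142388038, Ctsl at chr13:64359337-64370890, Ctss at chr3:95526786-95556403 and Ctsz at chr2:174427493-174439039. The membrane protein genes are Lamp1 at chr8:13159161-13175338, Lamp2 at chrX:38401357-38456454 and Cd68 at chr11:69664213-69666153. Grn lies at chr11:102430315-102437048 and Npc2 at chr12:84754562-84773152. All 10 are annotated as protein coding.

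Many lysosomal genes carry the letters CACGTG near their start, the core of the element bound by TFEB and its relatives MITF and TFE3. The 250 bases before the RefSeq start (GRCm38.p6) were searched for CACGTG, which reads the same on both strands, in the 9 members with a promoter entry, which are all but Ctsb. The letters were present in 3 of the 9 members and in 1978 of 32851 promoters (6.02%), and in 18 of 101 other lysosomal and phagocytic genes (17.8%) from the pathway lists described further on. Lamp1 held 4 copies, which 7 promoters of all (0.0213%) did. The longer form TCACGTGA, which contains CACGTG, was present in Ctsd, in 258 promoters (0.785%) and in 8 of the 101 other genes (7.92%). The windows around these letters are shown because Ctsd, Ctsl and Lamp1 are the members that hold them, with CACGTG in capitals, 5′ to 3′ on the strand of the gene. The first Ctsd window lies at chr7:142388057-142388077 and the second at chr7:142387910-142387935, both on the minus strand. The Ctsl window lies at chr13:64370741-64370766 on the minus strand and the Lamp1 window at chr8:13159090-13159160 on the plus strand. The second Ctsd window and the Ctsl window lie inside the GENCODE gene, and the other windows lie before it.
Ctsd, first window: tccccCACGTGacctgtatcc
Ctsd, second window: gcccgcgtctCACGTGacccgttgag
Ctsl: cgttagaagcCACGTGctgatctaaa
Lamp1: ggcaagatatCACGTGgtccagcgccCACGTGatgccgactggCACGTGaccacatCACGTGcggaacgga
Matches of letters are a description of these windows, and binding was not measured.

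Among the 6 large cell classes, 9 of the 10 members were highest in microglia, and Lamp1 was highest in oligodendrocytes. UMIs were summed per library and class and divided by the class total to give CPM, so a gene is compared with itself between classes and not with other genes, whose length and priming sites differ. Means are over the 27 libraries, and neighbours in the order are compared within each library.

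Among the cysteine proteases, Ctsb, an enzyme of broad lysosomal proteolysis, was at 282 ± 153 CPM (SD, n = 27) in microglia, 57.3 ± 19.5 in astrocytes, 49.6 ± 11.9 in oligodendrocytes, 44.3 ± 9.96 in inhibitory neurons, 31.8 ± 6.36 in excitatory neurons and 29.4 ± 5.43 in oligodendrocyte progenitors. Of the neighbours in this order, astrocytes were above oligodendrocytes in 21 of 27 libraries, with a mean within-library log2 ratio inside its spread (SD). Ratios of oligodendrocytes to inhibitory neurons and of excitatory neurons to oligodendrocyte progenitors lay inside their spread too (18 of 27 libraries higher for each). Ctss, a protease that stays active near neutral pH and trims the invariant chain of MHC class II, was at 664 ± 124 CPM in microglia and at a mean of 0.872 to 3.71 CPM in the other 5 classes. Ctsz, an exopeptidase, was at 152 ± 67.7 CPM in microglia, 12.3 ± 3.26 in astrocytes and 12.1 ± 4.11 in oligodendrocytes, and 2.61 to 3.49 CPM elsewhere. Ctsl, another broad protease, was at 53.4 ± 23.7 CPM in microglia, 22.2 ± 6.02 in astrocytes, 17.5 ± 4.33 in inhibitory neurons and 8.06 to 11.1 in the other classes. Among these 6 classes Ctss was thus nearly restricted to microglia, while Ctsl was spread over all of them. Ctsd, the main aspartic protease, gave 135 UMIs in all microglia together, 6.38 ± 3.79 CPM, and 0.116 to 0.310 CPM in the other classes, where neighbours in the order did not differ beyond the spread.

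Lamp1 was at 109 ± 29.9 CPM in oligodendrocytes, 83.9 ± 29.3 in microglia, 55.7 ± 9.45 in astrocytes, 34.7 ± 8.15 in oligodendrocyte progenitors, 27.5 ± 5.32 in inhibitory neurons and 21.0 ± 3.58 in excitatory neurons. Oligodendrocytes were above microglia in 23 of 27 libraries. Lamp2, which also serves as a receptor for proteins entering the lysosome directly from the cytosol, was at 204 ± 45.6 CPM in microglia, 155 ± 28.1 in astrocytes, 130 ± 18.5 in oligodendrocytes and 40.2 to 78.5 in the remaining classes. For Lamp2 each step in this order exceeded the spread of the within-library ratios. For Lamp1 each did except that from oligodendrocyte progenitors to inhibitory neurons. That step had a mean log2 ratio of 0.31 ± 0.34 (SD), with progenitors higher in 23 of 27 libraries. Cd68, a LAMP-related glycoprotein used as a marker of phagocytes, was at 42.2 ± 18.4 CPM in microglia and 0.355 to 1.39 CPM elsewhere. Grn encodes progranulin, a secreted growth factor that is cut into granulins in the lysosome, and it was at 139 ± 49.4 CPM in microglia and 4.86 to 9.64 elsewhere. Npc2, the soluble carrier that hands cholesterol to NPC1 for export from the lysosome, was at 80.9 ± 26.8 CPM in microglia, 32.7 ± 5.08 in oligodendrocytes, 26.4 ± 4.31 in astrocytes and 4.53 to 13.6 elsewhere.

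**Figure D1:**
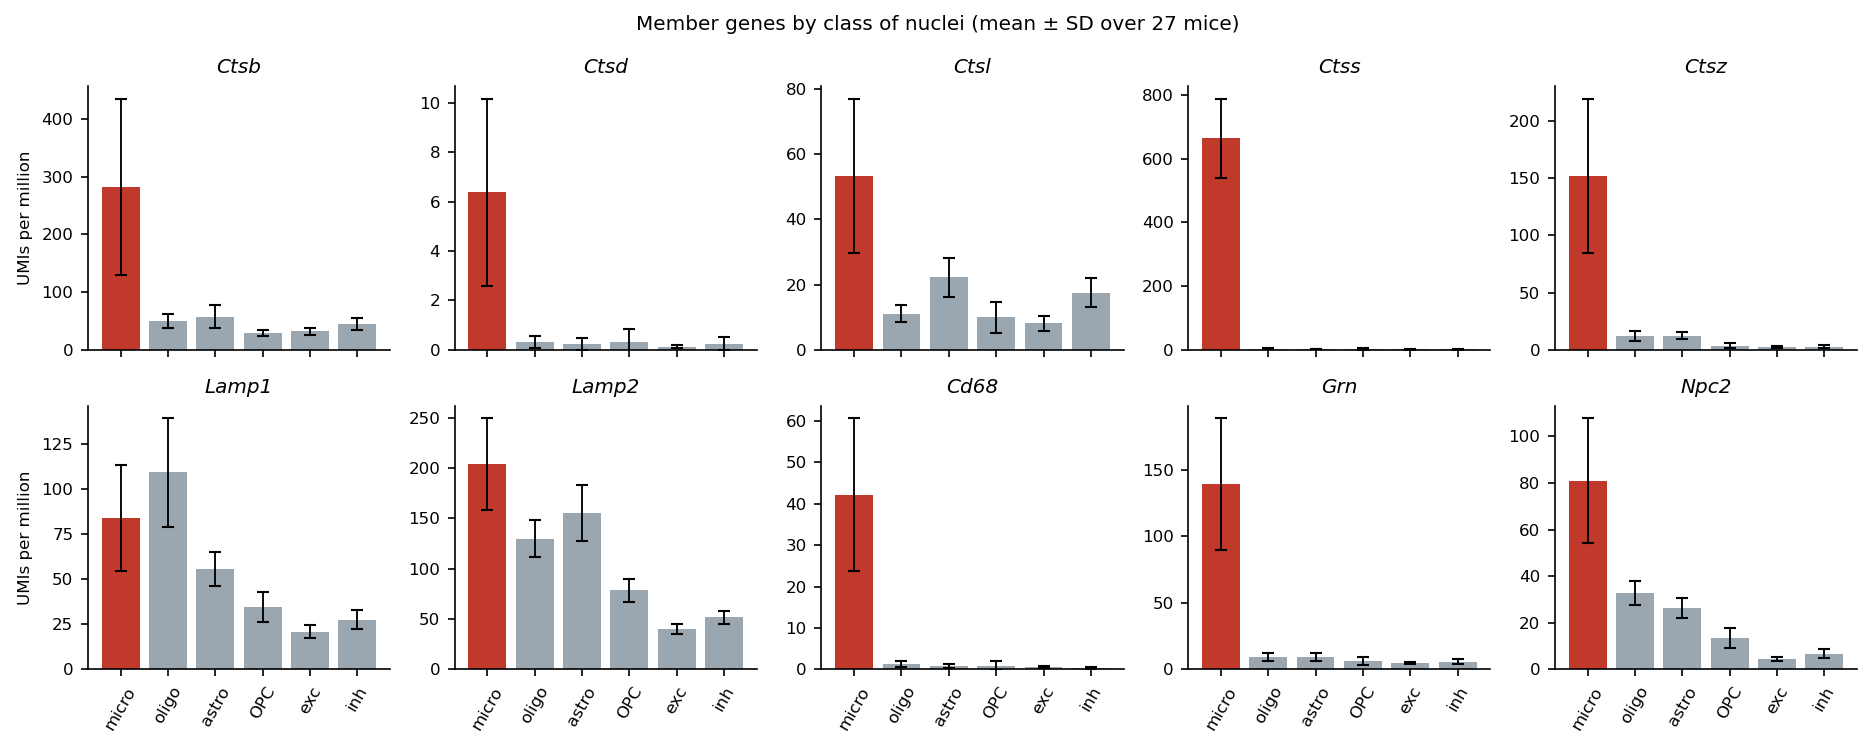
Level of each of the 10 members (CPM, linear axis from 0) in microglia (micro), oligodendrocytes (oligo), astrocytes (astro), oligodendrocyte progenitors (OPC), excitatory neurons (exc) and inhibitory neurons (inh), with bars at the mean and whiskers for the SD over 27 libraries. Ctss, Cd68 and Grn stand far above the other classes in microglia (red), whereas Lamp1 is highest in oligodendrocytes (109 against 83.9 CPM in microglia).

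Free RNA gives nuclei of every class some UMIs of genes they do not express, so each member's level was set beside that of 9 microglial markers as a percent of the microglial level. In excitatory neurons the markers ranged from 0.0506% to 1.27% of their microglial level, and in astrocytes from 0.0828% to 3.46%. Ctss was at 0.119% in excitatory neurons, 0.307% in astrocytes and 0.551% in oligodendrocytes, within the range of the markers in each of the 5 classes. Cd68 was within that range in inhibitory neurons and astrocytes, and Ctsd in astrocytes and oligodendrocyte progenitors. The other 7 members were above every marker in all 5 classes. Lamp2 stood at 78.7% of its microglial level in astrocytes and Ctsl at 41.0%.

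**Figure D2:**
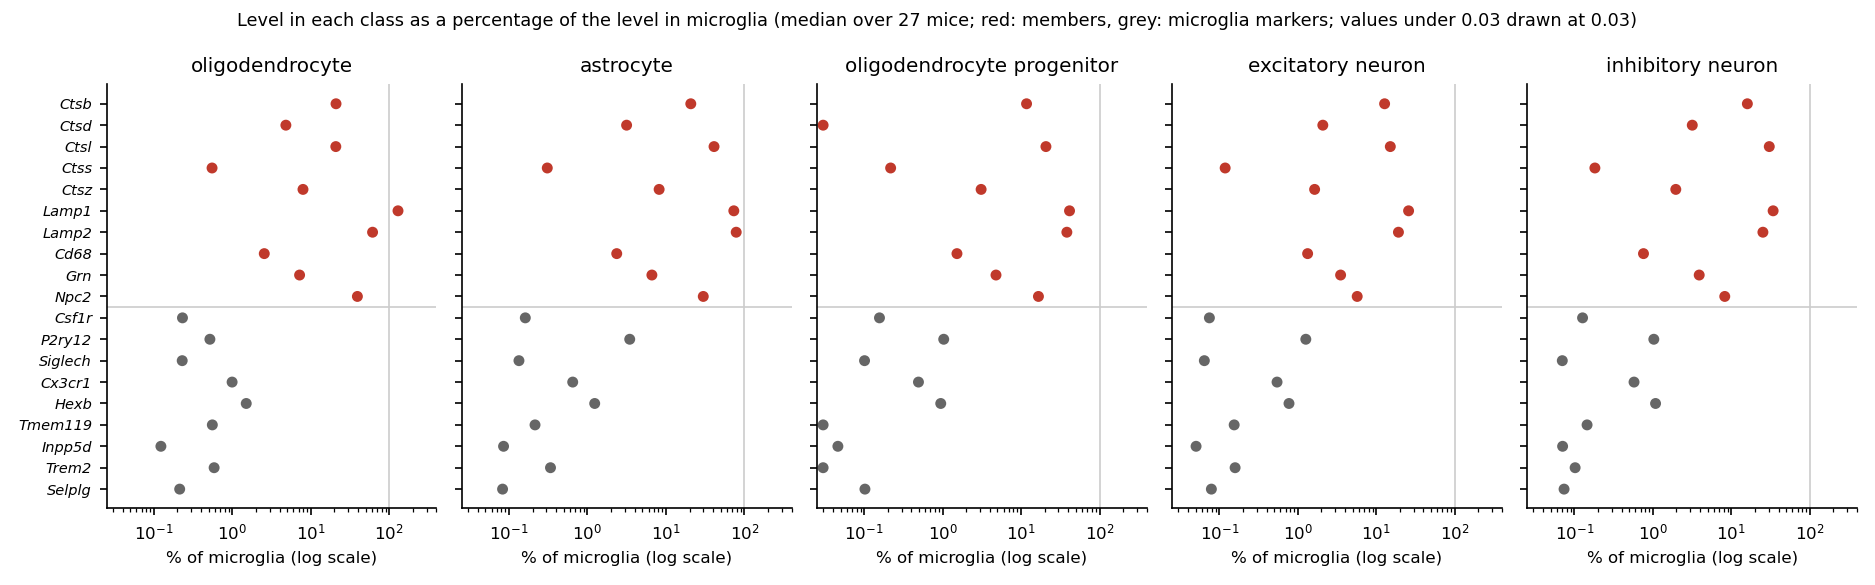
Level of each member in 5 other classes as a percent of its microglial level (log axis, medians over 27 libraries, red points), with 9 microglial markers (grey points) for comparison and values under 0.03% drawn at that level. Ctss lies within the range of the markers in all 5 classes, while Lamp1 in oligodendrocytes is at 129%.

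Small classes were pooled over libraries, with exact Poisson 95% intervals that cover counting error only. Border macrophages, which line vessels and meninges, had Ctsb at 394 CPM (316 to 485, from 88 UMIs), Ctss at 591 (494 to 700), Lamp1 at 148 (102 to 207) and Lamp2 at 206 (151 to 275). The pooled values of Ctsb and Lamp1 lie above the means of every large class, but the Lamp1 interval includes the oligodendrocyte mean of 109 CPM. The Ctsb interval includes the mean of 353 CPM over the microglia of P301S libraries. The values of Cd68 (58.2, 31.0 to 99.5) and Npc2 (89.5, 54.7 to 138) lie near the microglial means. T cells had Ctss at 70.6 CPM (49.2 to 98.2). Choroid plexus cells had Lamp2 at 195 CPM (188 to 203) and Ctss at 2.29 (1.58 to 3.22). Ctsd was not seen in border macrophages, endothelial cells or T cells, and the limit that a count of 0 allows (3 counts over the class) was 13.4, 1.42 and 6.05 CPM.

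In microglia, 8 of the 10 members were higher in the 18 P301S libraries than in the 9 tau-free libraries, none was lower, Cd68 did not pass the test, and Ctsd was removed by the filter on low counts. The comparison gave the 3 Cgas genotypes equal weight, with sex as a covariate, in edgeR's quasi-likelihood test with Benjamini-Hochberg adjustment over all 9627 genes tested, and genes with an adjusted p under 0.05 are called changed. Of all genes tested, 1159 were called (12%), and 749 were called higher (7.78%). The median log2 fold change was 0.70 over the 9 members tested and 0.0011 over all genes. Members with too few counts are left out of the first value. The study names Ctsb among disease-associated genes on these same libraries, so its direction here is not independent evidence. More molecules per nucleus and a larger share of nuclei of a state with high levels cannot be told apart in such sums. The states are taken up further on.

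Ctsb was at 155, 161, 163, 197 and 128 CPM in the 5 Cgas+/+ libraries, 101 and 124 in Cgas+/-, and 118 and 121 in Cgas-/-. In P301S Cgas+/+ it ranged from 149 to 658 CPM (median 300), in P301S Cgas+/- from 219 to 486 (median 309) and in P301S Cgas-/- from 252 to 520 (median 324). Of 18 P301S libraries, 17 lay above every tau-free library, and the exception was P301S Cgas+/+ replicate 2. The log2 fold change was 1.43 ± 0.26 (SE, adjusted p = 0.0024), a 2.69-fold difference. Ctsz was at 104, 94.3, 134, 127 and 68.0 CPM in Cgas+/+, 90.0 and 74.3 in Cgas+/-, and 91.0 and 73.1 in Cgas-/-. In P301S libraries it ranged from 107 to 327 CPM (median 165), and 13 of 18 lay above every tau-free library. Its log2 fold change was 0.98 ± 0.23 (adjusted p = 0.0083).

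Ctsl ranged from 17.0 to 110 CPM (median 56.9) in P301S and from 23.4 to 62.3 (median 41.2) in tau-free libraries, and the groups overlapped widely, with 7 of 18 P301S libraries above every tau-free one. Its log2 fold change was 0.86 ± 0.26 (adjusted p = 0.028). Ctss, the most microglia-restricted protease, differed least, at 516 to 947 CPM (median 726) against 443 to 657 (median 566). The log2 fold change of Ctss was 0.32 ± 0.098 (adjusted p = 0.030). Ctsd had 0 to 13 UMIs per library, 1.70 to 12.9 CPM in P301S and 0 to 11.2 in tau-free libraries, too few to pass the filter on low counts.

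Lamp2 was at 194, 171, 158, 153 and 164 CPM in Cgas+/+, 161 and 147 in Cgas+/-, and 157 and 177 in Cgas-/-. In P301S libraries Lamp2 ranged from 121 to 281 CPM (median 224), with 14 of 18 above every tau-free library and 1, P301S Cgas+/- replicate 6, below all of them. The log2 fold change was 0.52 ± 0.12 (adjusted p = 0.0059), a small difference set against a narrow spread among tau-free mice. Lamp1 ranged from 48.8 to 152 CPM (median 96.8) in P301S and from 46.8 to 96.8 (median 55.4) in tau-free libraries, and 9 of 18 lay above every tau-free library. Its log2 fold change was 0.67 ± 0.20 (adjusted p = 0.030). Cd68 ranged from 12.7 to 87.2 CPM (median 43.0) against 14.8 to 45.9 (median 33.5). Its log2 fold change of 0.70 ± 0.29 had an adjusted p of 0.11 and a 95% interval of 0.14 to 1.26 without adjustment, so it was not called although its estimate equals the median of the members.

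Npc2 was at 48.4, 64.5, 33.5, 82.4 and 76.0 CPM in Cgas+/+, 37.5 and 53.3 in Cgas+/-, and 45.5 and 54.4 in Cgas-/-. In P301S libraries it ranged from 57.7 to 135 CPM (median 95.6), and 12 of 18 lay above every tau-free library. The log2 fold change of Npc2 was 0.87 ± 0.16 with the smallest adjusted p of the members (0.0022). Grn ranged from 89.9 to 257 CPM (median 139) in P301S and from 76.3 to 171 (median 94.0) in tau-free libraries, with 6 of 18 above all tau-free libraries. Its log2 fold change was 0.58 ± 0.17 (adjusted p = 0.024).

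**Figure D3:**
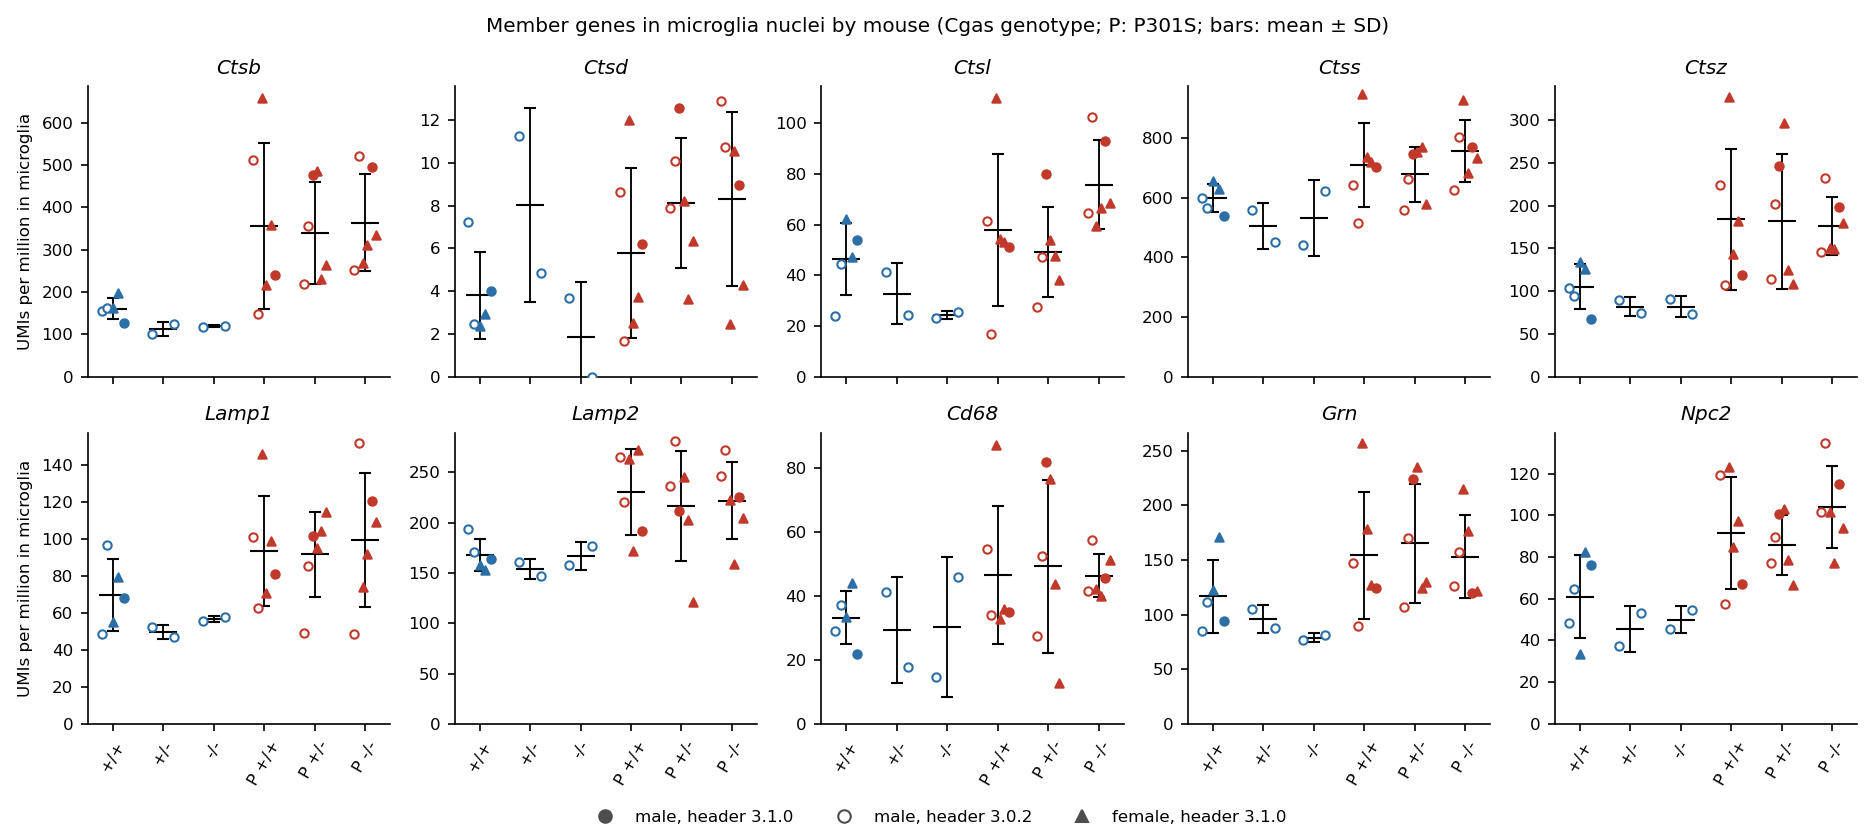
Level of each member in microglia (CPM, linear axis from 0) for the 27 libraries by group, with the mean and SD of each group, circles for males, triangles for females and open symbols for Cell Ranger 3.0.2. Ctsb in P301S libraries reaches 658 CPM while the highest tau-free library is at 197, and no member separates the groups fully.

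Which members were called depended on single libraries, most of all in the groups of 2. Leaving out any library of the groups of 2 lost calls, while most libraries in the groups of 5 and 6 lost none. With equal weight per Cgas genotype, each group of 2 counts as much as the 5 Cgas+/+ libraries. With each library left out in turn, Ctsb, Lamp2 and Npc2 were called in 27 of 27 fits, Ctsz in 26, Grn in 24, Ctsl in 22, Ctss in 21, Lamp1 in 19 and Cd68 in 0. Without Cgas+/- replicate 2 the members called were 3, without Cgas-/- replicate 1 they were 4, and without Cgas-/- replicate 2, P301S Cgas+/- replicate 3 or P301S Cgas-/- replicate 5 they were 5. They were 6 without P301S Cgas-/- replicate 2, and 7 without Cgas+/- replicate 1 or Cgas+/+ replicate 3 or 4. With the header version as a block, or within version 3.0.2 alone, 4 members were called, which were Ctsb, Ctsz, Lamp2 and Npc2 in both, beside 925 genes (9.61%) and 452 genes (5.02%). Version 3.1.0 holds no tau-free Cgas+/- or Cgas-/- library, so the comparison could not be fitted in it. Without the 4 libraries with a concentrated unnamed cluster, all 9 members tested were called beside 1385 genes (14.5%), Cd68 with a log2 fold change of 0.80 ± 0.26 (adjusted p = 0.041). Cd68 was called without the filter on low counts too (0.76 ± 0.19, adjusted p = 0.0017), where 1723 genes of 21751 were called (7.92%).

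Markers of other cells within the microglia class were set beside this comparison, as the sum of each list in CPM. The 8 border macrophage markers summed to 90.8 to 283 CPM in P301S and 176 to 330 in tau-free libraries, with Pf4, Lyve1 and Cbr2 at 0 in every library, and 6195 CPM in border macrophages themselves. The oligodendrocyte markers summed to 260 to 673 CPM (median 410) in P301S and 236 to 501 (median 309) in tau-free libraries, against 17470 in their own class. The 8 T cell markers summed to 267 to 948 CPM (median 594) against 281 to 464 (median 348), with Cd8a at 0. They include Ptprc, which is also a leading gene of a microglia cluster, so this sum is not specific to T cells. The 9 microglial markers themselves were lower, at 6275 to 11584 CPM (median 8752) in P301S and 10297 to 12544 (median 10912) in tau-free libraries. Sums for 8 excitatory, 10 inhibitory and 8 astrocyte markers were 176 to 419, 219 to 643 and 377 to 641 CPM in P301S, and 254 to 397, 352 to 630 and 431 to 574 in tau-free libraries, and those of choroid plexus were 26.9 to 335 and 48.0 to 429. Their part in the results was not tested.

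In mice with intact Cgas, the comparison of P301S Cgas+/+ with Cgas+/+ (6 against 5 libraries) gave higher estimates for all 9 members tested, and none passed. No gene of 9337 was called by edgeR (0%), 1489 had an unadjusted p under 0.05, and DESeq2 called 291, with Ctsb among them. Without the filter on low counts edgeR called 854 genes and 4 members (Ctsb, Ctsz, Lamp2 and Npc2). Ctsb, at 356 ± 196 CPM (SD, n = 6) against 161 ± 24.7 (n = 5), had a log2 fold change of 1.15 ± 0.34 (SE) with a 95% interval of 0.47 to 1.82 and an adjusted p of 0.11 from edgeR. The same values were 0.80 ± 0.30 (0.20) for Ctsz, 0.61 ± 0.22 (0.16) for Npc2 and 0.50 ± 0.16 (0.14) for Lamp2. The other 5 members had estimates of 0.23 (Ctss) to 0.51 (Cd68), all with intervals that include 0, and the median was 0.50 over the members and -0.0098 over all genes. Without P301S Cgas+/+ replicate 2, 423 genes and 2 members (Ctsb and Npc2) were called, and without replicate 4 of that group 43 genes and no member were called.

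Loss of Cgas in P301S mice showed no detectable difference in any member. In P301S Cgas-/- against P301S Cgas+/+ (6 against 6 libraries), no gene of 9337 was called by edgeR (0%), with 234 at an unadjusted p under 0.05 and none called by DESeq2. Ctsl had the largest estimate, 75.7 ± 17.5 CPM (SD, n = 6) against 57.8 ± 29.97, a log2 fold change of 0.39 with a 95% interval of -0.16 to 0.93, and it was 0.99 within version 3.0.2 and 0.072 within version 3.1.0. Ctsb differed by 0.02 (-0.57 to 0.62), Lamp2 by -0.10 (-0.39 to 0.19) and Ctss by 0.07 (-0.16 to 0.31). The interval of Ctss excludes a change of 1.5-fold or more at this number of mice, while that of Ctsb does not. In P301S Cgas+/- against P301S Cgas+/+, no gene was called (0%), with 204 at an unadjusted p under 0.05 and none called by DESeq2, and the members ran from -0.20 (Ctsl, -0.76 to 0.37) to 0.18 (Cd68, -0.39 to 0.74). The 2 comparisons share the P301S Cgas+/+ libraries, and so does the one with Cgas+/+.

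Without tau, Cgas-/- against Cgas+/+ (2 against 5 libraries) gave no call among 9627 genes (0%; 254 at an unadjusted p under 0.05, and 0 by DESeq2), and all 9 estimates lay between -0.89 (Ctsl) and -0.08 (Lamp2). The interaction, which asks whether P301S and Cgas deletion combine other than additively on the log scale, also gave no call (0%; 291 at an unadjusted p under 0.05, and 0 by DESeq2). Ctsl had the largest interaction, 1.27 ± 0.56 (adjusted p = 1). It is the deletion estimate within P301S (0.39) less the one without tau (-0.89), and the latter includes Ctsl levels of 23.4 and 25.5 CPM in the 2 Cgas-/- libraries, both of Cell Ranger 3.0.2.

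**Figure D4:**
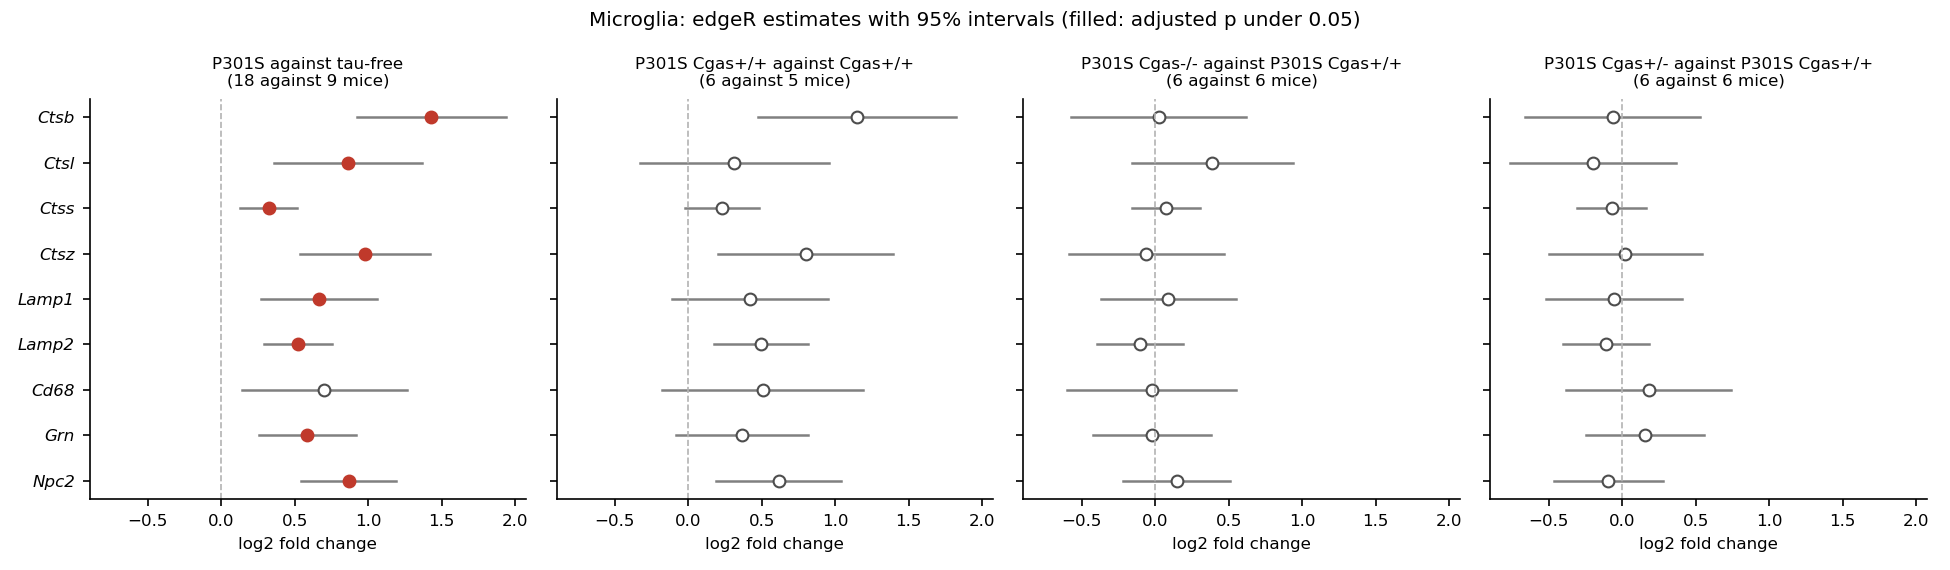
Log2 fold change with its 95% interval for the 9 members tested in microglia, by comparison, with filled points where the adjusted p is under 0.05. Estimates for P301S against tau-free lie above 0 for every member (0.32 to 1.43), while those of the deletion and heterozygous comparisons within P301S lie between -0.20 and 0.39 with intervals across 0.

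Between females and males, 8 of 9337 genes were called in microglia (0.0857%) and no member was among them. Lamp2, the member on the X chromosome, was lower in females by 0.17 on the log2 scale with an interval of -0.38 to 0.05 (adjusted p = 0.78 from edgeR). Grn was higher in females by 0.39 ± 0.15 (adjusted p = 0.47) and Ctss by 0.20 ± 0.087 (adjusted p = 0.54), neither called. All females belong to header version 3.1.0, so sex and version overlap.

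Microglia were split into states by clustering on variable genes of the same nuclei. The members, the genes of the pathway lists described further on and mitochondrial genes were left out of this clustering. The members' levels in these states are descriptions. Subclusters were named from marker lists with thresholds set after the clusters were seen. In 3 subclusters the homeostatic list had the highest score. The naming rule left 1 of them (1914 nuclei) unnamed, with a score of 0.958 for the homeostatic list and 0.535 for the disease-associated list. Of the other 2, the first held 3463 nuclei, led by Nhs, Myo18b and Hlf, and the second 2775, led by 2610035D17Rik, Sgcd and Brinp3. No homeostatic marker was among the 10 leading genes of either, and those of the second include Cdh18, Nxph1, Dpp10 and Cntn4, genes best known from neurons. Both together are called homeostatic-scoring, which names a score and not a cell type. Shares of these subclusters are of all nuclei subclustered, border macrophages included. The first held 54.4%, 82.0% and 88.6% in Cgas+/+, Cgas+/- and Cgas-/- and 13.4% to 16.7% in the P301S groups. The second held 38.3%, 11.6% and 8.04% against 22.2% to 30.4%. By header version the first held 49.5% in 3.0.2 and 16.4% in 3.1.0, and the second 16.5% and 29.9%. The tau-free Cgas+/- and Cgas-/- libraries are all of 3.0.2, so genotype and version overlap there. Of the other subclusters, 1 was disease-associated-like (2520 nuclei, led by Gpnmb, Atp6v0d2 and Lpl) and 1 interferon-responsive-like (591 nuclei, led by Mx1 and Oasl2). Of the 1914 unnamed nuclei, P301S Cgas+/+ replicate 5 gave 38.0%. They made up 1.61% to 3.52% of the nuclei subclustered in the tau-free groups and at most 26.0% in a P301S group. Disease-associated-like nuclei were 0.199% of microglia in Cgas+/+, 0.932% in Cgas+/- and 0.434% in Cgas-/- (pooled), and 25.5%, 33.9% and 34.6% in P301S Cgas+/+, P301S Cgas+/- and P301S Cgas-/-. The median library of these P301S groups was at 21.0%, 22.3% and 21.5%, and the share ranged from 0% to 77.9% between P301S libraries, so the 3 groups overlapped widely.

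In 13 P301S libraries with at least 20 nuclei of both states, Ctsb was at 519 ± 118 CPM (SD) in disease-associated-like and 265 ± 89.5 in homeostatic-scoring nuclei, and higher in 13 of 13 libraries. Ctsz was at 244 ± 57.5 against 135 ± 47.4 CPM (12 of 13), Cd68 at 62.9 ± 27.1 against 38.5 ± 22.6 (10 of 13) and Npc2 at 106 ± 22.7 against 76.9 ± 33.9 (11 of 13). Lamp2 was at 276 ± 52.1 against 210 ± 45.1 CPM (11 of 13). Ctss, at 647 ± 73.2 against 695 ± 109 CPM (4 of 13), and Grn, at 153 ± 46.4 against 143 ± 52.8 CPM (8 of 13), had mean log2 ratios of -0.092 ± 0.21 and 0.12 ± 0.46 (SD), within their spread. Ctsl and Lamp1 had mean log2 ratios of 0.43 ± 0.59 and 0.35 ± 0.57, and Cd68 and Npc2 of 0.80 ± 1.15 and 0.53 ± 0.59. Ctsd was at 12.9 ± 7.83 against 4.43 ± 4.25 CPM, a mean log2 ratio of 1.52 ± 2.30. These were within their spread too.

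The interferon-responsive-like nuclei were compared with homeostatic-scoring ones in 8 libraries with at least 20 nuclei of both states. They were not tested against the disease-associated-like nuclei. Npc2 was at 150 ± 33.2 CPM against 76.8 ± 43.6 in homeostatic-scoring nuclei (7 of 8 libraries) and Ctss at 877 ± 147 against 702 ± 144 (6 of 8). Ctsb was at 412 ± 164 against 267 ± 92.7 CPM and Ctsz at 186 ± 42.0 against 119 ± 44.3 (7 of 8 each). Mean log2 ratios were 1.08 ± 0.73 (SD) for Npc2 and 0.61 ± 0.49 for Ctsb. Those of Ctss (0.33 ± 0.43) and Ctsz (0.69 ± 0.70) were within their spread. Cd68, Grn, Ctsl and Lamp1 were higher in 4 or 5 of the 8. Disease-associated-like nuclei had a median of 2099 UMIs and interferon-responsive-like ones 1885, against 1431 and 1592 in the homeostatic-scoring subclusters, and the part of depth was not tested.

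**Figure D5:**
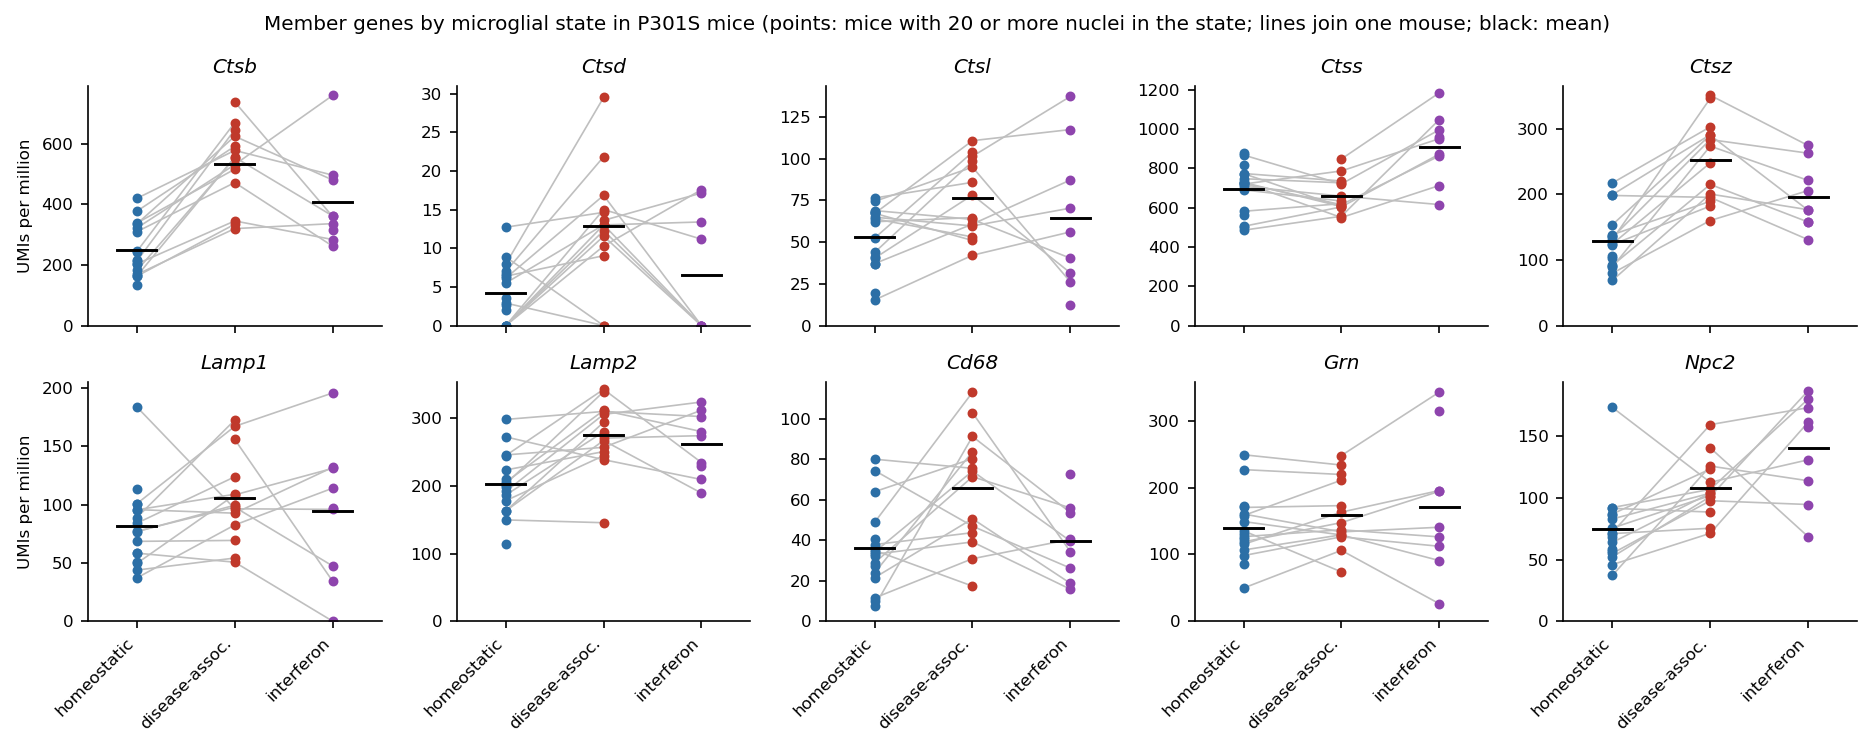
Level of each member (CPM) in homeostatic-scoring, disease-associated-like and interferon-responsive-like microglia, with 1 point per P301S library of at least 20 nuclei in that state, grey lines joining the states of a library and a black bar at the mean. Over the 13 libraries with both states Ctsb is at 519 CPM in disease-associated-like and 265 in homeostatic-scoring nuclei, whereas Ctss is at 647 and 695.

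Over homeostatic-scoring nuclei, Ctsb was higher in P301S than in tau-free libraries, and it was the member called there. All 27 libraries entered. Ctsb had a log2 fold change of 0.90 ± 0.20 (SE, adjusted p = 0.018 from edgeR), and 120 of 7721 genes were called (1.55%). With libraries of 100 or more such nuclei alone it was 0.92 ± 0.22 (adjusted p = 0.049). The 2 subclusters, which the groups fill unequally, differ in Ctsb, at 143 CPM in the first and 250 in the second (pooled), so the part of this difference that comes from their mixture was not tested. In the first, over libraries with 20 or more of its nuclei, Ctsb ranged from 92.9 to 364 CPM (median 170) in 12 P301S libraries and from 87.7 to 169 (median 117) in 8 tau-free libraries. In the second it ranged from 145 to 418 CPM (median 258) in 16 P301S libraries and from 91.5 to 218 (median 143) in 7 tau-free libraries. The groups overlapped in both, with 6 of 12 and 11 of 16 P301S libraries above every tau-free one. The other 8 members tested had estimates of 0.15 (Cd68) to 0.55 (Ctsl), all higher and none called, and the median was 0.45 over the members and -0.0069 over all genes. For P301S Cgas+/+ against Cgas+/+ within these nuclei, no gene of 6683 was called by edgeR (0%), with 357 at an unadjusted p under 0.05, and 7 of 9 estimates of the members were above 0.

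Outside microglia, 3 members differed between P301S and tau-free libraries. In excitatory neurons, 410 of 17728 genes were called (2.31%), and with them Ctsz and Ctss. Ctsz was at 2.54 ± 1.09, 3.22 ± 0.856 and 3.46 ± 0.584 CPM (SD, n = 6 each) in P301S Cgas+/+, P301S Cgas+/- and P301S Cgas-/-, and 2.12 ± 0.826 (n = 5), 0.799 ± 0.143 (n = 2) and 1.5 ± 0.477 (n = 2) in the tau-free groups of the same Cgas genotypes. Its log2 fold change was 1.10 ± 0.21 (SE, adjusted p = 0.014), and the call was lost without Cgas+/- replicate 2, without either Cgas-/- library and within version 3.0.2. Over all libraries Ctsz was at a mean of 2.61 CPM in excitatory neurons and 152 in microglia. Microglial markers reach up to 1.27% of their microglial level in these neurons, and Ctsz rose in microglia by 0.98. The part of free RNA in the Ctsz difference was not tested. Ctss was at 1.26 ± 0.552 CPM in P301S Cgas+/+ and 0.485 ± 0.117 in Cgas+/+, a log2 fold change over all groups of 1.04 ± 0.27 (adjusted p = 0.043) that was called in 12 of 27 fits with a library left out. It was not called by edgeR without the filter on low counts (adjusted p = 0.056) or with the header version as a block (0.064). The same held without the 4 libraries with a concentrated unnamed cluster (0.065) and within version 3.0.2 (0.096). These Ctss levels lie within the range that microglial markers reach in excitatory neurons.

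In astrocytes, 369 of 13760 genes were called (2.68%), including Lamp2. It was at 176 ± 26.8 CPM (SD, n = 6) in P301S Cgas+/+, 163 ± 26.2 in P301S Cgas+/- and 156 ± 32.3 in P301S Cgas-/-, and 138 ± 20.5, 131 ± 6.41 and 137 ± 6.21 in the tau-free groups of the same order. The log2 fold change was 0.32 ± 0.081 (SE, adjusted p = 0.036), called in 15 of 27 fits with a library left out. It was not called without the sex term (0.24 ± 0.087, adjusted p = 0.13), without the filter on low counts (adjusted p = 0.052), with the header version as a block (adjusted p = 0.059) or within version 3.0.2 (adjusted p = 0.17). In inhibitory neurons 3 of 13297 genes (0.0226%) and in oligodendrocytes 20 of 12998 (0.154%) were called, with no member among them. All 8 members tested in oligodendrocytes had estimates above 0, with a median of 0.27 against 0.018 over all genes.

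For P301S Cgas+/+ against Cgas+/+, no member was called in excitatory neurons (4 of 17026 genes, 0.0235%), inhibitory neurons (1 of 12819, 0.00780%), astrocytes (1 of 13173, 0.00759%) or oligodendrocytes (1 of 12572, 0.00795%). Neither Cgas comparison within P301S called a member in these 4 classes, where the deletion comparison called no gene (0%) and the heterozygous one called 1 gene in inhibitory neurons (0.00780%). By sex, 1261 genes were called in excitatory neurons (7.41%), 330 in inhibitory neurons (2.57%), 266 in astrocytes (2.02%) and 220 in oligodendrocytes (1.75%). With the header version as a block the sex difference called 11, 9, 13 and 15 genes in the same order. The only member called by sex was Lamp1 in oligodendrocytes, higher in females by 0.47 ± 0.11 on the log2 scale (adjusted p = 0.039 from edgeR). With the header version as a block the Lamp1 difference was 0.33 ± 0.16 (adjusted p = 0.46), within version 3.1.0 alone it was 0.33 ± 0.15 (adjusted p = 0.51), without the 4 libraries with a concentrated unnamed cluster it was 0.28 ± 0.098 (adjusted p = 0.24), and it was called in 11 of 23 fits with a library left out.

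The members sit among 7 pathway lists of 109 other genes, which give the wider lysosome in microglia of P301S against tau-free mice. A gene that passes the filter on low counts only through the group in which it is high has to differ, so the lists are counted over genes that reach the filter's cutoff (16.2 CPM in microglia) in at least 2 tau-free and 2 P301S libraries. All 9 members tested are among these, and of all 8441 such genes 943 were called (11.2%) and 563 were called higher (6.67%). Of 14 other proteases and inhibitors, 9 were counted, 3 rose and none fell, with a median log2 fold change of 0.24. Ctsc, which activates serine proteases of immune cells, rose by 0.90 ± 0.21 (SE, adjusted p = 0.0091) and the aminopeptidase Ctsh by 0.67 ± 0.16 (adjusted p = 0.0097). Cst7, an inhibitor of cysteine cathepsins, was at a mean of 0.269 CPM in tau-free (1 UMI) and 13.8 in P301S microglia, the aspartic protease Ctse was at 0.548 (3 UMIs) and 26.0 CPM, and neither is counted. Of 25 acid glycosidases, lipases and sulfatases, 19 were counted, 6 rose and none fell (median 0.34). Lipa, the acid lipase that frees cholesterol from its esters, rose by 1.15 ± 0.33 (adjusted p = 0.025), Galc, which degrades galactosylceramide, by 0.97 ± 0.21 (adjusted p = 0.0049), and Psap, the precursor of the saposins, by 0.42 ± 0.13 (adjusted p = 0.025).

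Of 16 lysosomal membrane proteins, 15 were counted, 2 rose and 1 fell (median 0.14). Slc11a1, a metal transporter of phagosomes, rose by 0.93 ± 0.20 (adjusted p = 0.0053) and Clcn7, a chloride transporter, by 0.68 ± 0.19 (adjusted p = 0.018). Cd63, a tetraspanin, was at 4.09 ± 4.01 CPM (SD, n = 9) in tau-free and 14.5 ± 7.33 (n = 18) in P301S microglia and is not counted. Slc38a9, an amino acid sensor of the mTORC1 pathway, fell by 0.25 on the log2 scale (adjusted p = 0.033). Of 15 subunits of the V-ATPase, the pump that acidifies the lysosome, 13 were counted, 4 rose and none fell (median 0.30), with Atp6v1b2 at 0.84 ± 0.17 (adjusted p = 0.0026). Of 8 sorting receptors and mannose 6-phosphate enzymes, 7 were counted, 2 rose and 1 fell (median 0.22). Gnptab, which starts the mannose 6-phosphate tag, rose by 1.28 ± 0.25 (adjusted p = 0.0032), and the sorting receptor Sort1 fell by 0.38 on the log2 scale (adjusted p = 0.018).

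Of 7 transcription factors and kinases of lysosome genes, 6 were counted, and Mitf was the 1 called, from 564 ± 40.8 CPM (SD, n = 9) to 1165 ± 427 (n = 18), a log2 fold change of 1.08 ± 0.24 (SE, adjusted p = 0.0059). The median of this list was 0.015. Of 24 phagocytic receptors and adaptors, 17 were counted, 2 rose and 1 fell (median 0.098). Not counted are Axl, Itgax, Tlr2 and Msr1. Axl, a receptor for phosphatidylserine on dying cells, was at 7.28 ± 5.95 CPM (SD, n = 9) in tau-free and 171 ± 127 (n = 18) in P301S microglia, and Itgax, a complement receptor subunit, at 3.22 ± 3.54 and 64.5 ± 53.6 CPM. The pattern receptor Tlr2 was at 8.27 ± 3.22 and 19.7 ± 9.58 CPM. The inhibitory Fc receptor Fcgr2b rose by 0.74 ± 0.21 (adjusted p = 0.019), and Elmo1, an adaptor in the engulfment of dying cells, fell by 0.60 on the log2 scale (adjusted p = 0.011). No gene of these lists, those not counted included, was called in microglia by sex or in any other comparison between genotypes.

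Over homeostatic-scoring microglia, 2 of 77 list genes counted in the same way were called (2.60%), beside 87 of 6324 such genes in all (1.38%). They were Mitf (0.50 ± 0.12, adjusted p = 0.021 from edgeR) and Ctsh (0.48 ± 0.13, adjusted p = 0.045). In the other classes, P301S against tau-free called Tfeb in excitatory neurons (0.49 ± 0.13, adjusted p = 0.048) and no other list gene counted in this way. That is 1 of 92 list genes in excitatory neurons (1.09%), beside 2.29% of the 16741 genes counted alike. Fcgr2b in astrocytes, not counted, was at a mean of 0.0719 CPM (3 UMIs) in tau-free and 3.23 in P301S libraries. The sex difference called 5 of 94 list genes in excitatory neurons (5.32%), 1 of 84 in inhibitory neurons (1.19%) and 3 of 84 in astrocytes (3.57%), beside 7.41%, 2.57% and 2.02% of all genes. The sorting receptor Sort1 was higher in females by 0.23 ± 0.051 in excitatory neurons (adjusted p = 0.013) and 0.25 ± 0.064 in astrocytes (adjusted p = 0.043). Female libraries all share the same header version, so sex and version overlap here too. With the version as a block, genes called by sex fell from 1261 to 11 in excitatory neurons and from 266 to 13 in astrocytes. The part of the header version in the Sort1 differences was not tested.

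The genes whose microglial levels over the 27 libraries were most like the mean of the 10 members were Myo1f (Pearson's r = 0.940), Lyz2 (0.935), Cotl1 (0.933), Rassf3 (0.912) and Bcl6 (0.906), among 9135 genes at 10 CPM or more, on log2(CPM + 1). Lyz2 encodes lysozyme, and Myo1f and Cotl1 encode proteins of the actin cytoskeleton. The members' own r with that mean ran from 0.556 for Ctsd to 0.945 for Ctsz and 0.955 for Ctsb. The libraries fall into P301S and tau-free groups with different levels, so these r values describe the set of mice, share its library and depth differences, and carry no p.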

How the data were processed

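The authors deposited raw UMI counts for each gene in each barcode (10x 3' v3), made with Cell Ranger on mm10 with reads of pre-mRNA counted. The matrix headers name version 3.0.2 or 3.1.0 and the submitters' processing notes 3.1.0. Barcodes with 200 to 4000 genes and a mitochondrial share of no more than 5% were retained, following the study's methods, and doublets were removed by Scrublet score at 0.8% per 1000 barcodes. Nuclei were clustered (scanpy 1.11.5, Leiden, resolution 1) and named from marker lists, with scoring thresholds set after the clusters were seen. A class name stands for "like" that type. Counts were summed per library and class and tested with edgeR 4.0.16 (quasi-likelihood, TMM, filterByExpr, sex as covariate, Benjamini-Hochberg), with DESeq2 1.42.0 as an alternative. Groups came from the labels, and p-values measure the spread between mice. The study tested nuclei with MAST and left the tau-free Cgas+/- and Cgas-/- groups out. The members and lists were chosen with earlier results of these data known. All members are named; of each pathway list and comparison, at most 4 called genes per direction by smallest p, or else at most 2; and the 5 genes most like the members. In data simulated from the microglia counts for P301S Cgas+/+ against Cgas+/+ (9085 genes), 8.3% of 1.5-fold and 41.8% of 2-fold changes were recovered. The gene annotation used for counting is not given in the sources used here. Intervals and limits for counts of 0 cover counting error only.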

Additional observations from a re-analysis of the deposited data

How the results depend on the processing

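In microglia, the sign of all 9 members in P301S against tau-free mice was the same under every alternative run. The number of members called was 4 with the header version as a block (925 genes), 4 within version 3.0.2 (452 genes), 1 within homeostatic-scoring nuclei (120 genes), and 3 to 8 with a library left out (298 to 1435 genes). For P301S Cgas+/+ against Cgas+/+, where no member was called, DESeq2 called 1 member (291 genes), edgeR without a filter on low counts 4 (854 genes), and fits with a library left out 0 to 2 (0 to 423 genes). For the same comparison a fit over all 27 libraries called 5 genes, and 51 were called without the 4 libraries with a concentrated unnamed cluster. Without the filter, the deletion comparison called 23 genes and the heterozygous one 34. The sex difference called 36 genes with DESeq2, 126 without the filter and 7 to 33 with a library left out. Of the list genes named for P301S against tau-free in microglia, Slc38a9 kept its result in 4 of 8 alternatives and 17 of 27 fits with a library left out. Lipa and Sort1 kept theirs in 5 of 8 alternatives, and Ctsh and Mitf in 8 of 8. The cause of these differences was not tested. The fits within 1 header version and without the 4 libraries were added after seeing the data. For the sex difference, the fits with the version as a block, over all 27 libraries and with a library left out were not planned either. The plan for homeostatic-scoring nuclei named P301S Cgas+/+ against Cgas+/+ only. The thresholds that name these nuclei were set after the clusters were seen.

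For P301S against tau-free in other classes, the members called were 1, 1, 1 and 0 in excitatory neurons (no filter, version block, without the 4 libraries, version 3.0.2, with 216, 378, 127 and 273 genes) and 0 to 2 with a library left out. In astrocytes they were 3 with DESeq2 (723 genes), 2 without the 4 libraries (947), 0 without the filter, with the block or within version 3.0.2 (135, 99 and 77), and 0 to 3 with a library left out. In oligodendrocytes they were 1 with DESeq2, no filter, no sex term or without the 4 libraries (204, 26, 29 and 47 genes), and 0 to 1 with a library left out. By sex, the 1 member in oligodendrocytes was 0 with the block, without the 4 libraries or within version 3.1.0 (15, 14 and 8 genes), and 0 to 1 with a library left out, as in astrocytes.

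The signs that turned were of log2 differences that no fit called. For deletion within P301S, Ctsb was -0.0018 without the filter, -0.088 within 3.1.0 and -0.15 to 0.27 with a library left out. Ctsz was 0.045 without the 4 libraries, 0.16 within 3.0.2 and -0.17 to 0.14 with a library left out. Lamp1 was -0.015 within 3.1.0 and -0.086 to 0.23, Cd68 was 0.19 without the 4 libraries, 0.12 within 3.0.2 and -0.11 to 0.23, and Grn was 0.050, 0.22 and -0.11 to 0.12 under the same. Ctss was -0.019 within 3.1.0 and Lamp2 0.066 within 3.0.2. For 1 copy of Cgas, Ctsb was 0.21 without the 4 libraries and -0.23 to 0.20 with a library left out, Ctsl was 0.086 and -0.43 to 0.052, and Lamp1 was 0.23, 0.035 within 3.1.0 and -0.13 to 0.095. Ctss was 0.0026 without the 4 libraries and 0.084 within 3.0.2. Within 3.0.2, Ctsz was -0.057, Lamp2 0.10 and Cd68 -0.12, and with a library left out Ctsz was -0.18 to 0.23, Cd68 -0.037 to 0.44, Grn -0.011 to 0.30 and Npc2 -0.19 to 0.0050. For tau with intact Cgas, Ctss was -0.036 within 3.0.2, and within homeostatic-scoring nuclei Ctsl was -0.099 and Cd68 -0.060. No paired analysis was possible because the labels number no replicates across groups. Ctsd, with 135 UMIs in microglia, was removed by the filter on low counts, and its values in the fits without that filter are not given here.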
